A study of Penicillium citrinum with 6 samples.

Results

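The genes described here code for the enzymes that remove superoxide and hydrogen peroxide and keep protein thiols reduced in the mould Penicillium citrinum. They were chosen by product name, as every gene annotated as a catalase, superoxide dismutase, cytochrome c peroxidase, glutathione peroxidase, glutathione reductase, glutaredoxin, peroxiredoxin or thioredoxin-type protein. That rule took 41 of the 9385 genes in the deposited tables. RNA from wild-type mycelium was sequenced in 6 libraries, 2 per group, and every culture was kept at 25 °C. CK2D was mycelium from plates of Czapek-Dox, a defined sucrose and nitrate medium, at day 2. TL2D and TL3D were mycelium from inoculated tobacco leaves at day 2 and day 3. The titles leave these codes unexplained, and each was assigned to plates or leaves from the day it names and the days on which each substrate was sampled. Whether replicates came from separate cultures is not given, so the p-values reflect only the spread among these libraries, which may be technical.

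Superoxide dismutases turn superoxide into hydrogen peroxide and oxygen, and catalases split the peroxide into water and oxygen. Peroxiredoxins, glutathione peroxidases and cytochrome c peroxidase reduce peroxides with electrons that come from thioredoxin, glutathione or cytochrome c. Thioredoxin reductase and glutathione reductase recharge thioredoxin and glutathione with NADPH, and glutaredoxins use glutathione to reduce disulfides or to handle iron-sulfur clusters. Filamentous fungi carry several catalases with separate roles. In Aspergillus nidulans catA is the catalase of conidia, the asexual spores, and catB that of growing mycelium.

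The tables give FPKM, fragments scaled by gene length and by the fragments of the library. Summed FPKM per library ran from 582600 to 614206, and 7906 to 8217 genes reached 1 FPKM. Read totals are unknown, so no counting error can be given for any value. Differences between groups were tested with limma on log2(FPKM + 1), and a gene was called when its p, adjusted over all genes tested, was under 0.05. Every log2 change here is on that scale, which understates the change of low genes, while folds are ratios of mean FPKM.

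Each group of leaf libraries had individual members that differed many-fold from plates, and the share of members called, in either direction, was close to that among all genes in both comparisons with plates. Of the 38 members with enough signal to test, 12 were higher and 9 lower in TL2D than in CK2D, against 24.8% and 29.4% of all genes tested. That is 55.3% of the tested members and 54.2% of all genes. From TL2D to TL3D, 2 members rose and 4 fell, against 6.77% and 3.30% of all genes, which is 15.8% of the tested members and 10.1% of all genes, and the 4 that fell are 10.5% of the tested members. In TL3D against CK2D, 14 were higher and 9 lower, against 28.1% and 30.2% of all genes, or 60.5% against 58.3% in all, and substrate and day cannot be told apart there. Called changes were also counted at a limit of 2-fold, set on the log2(FPKM + 1) scale and not on folds of mean FPKM. They numbered 4 higher and 4 lower in TL2D against CK2D, where 10.0% and 12.2% of all genes, 22.3% in all, passed. They numbered 2 and 2 from TL2D to TL3D, each 5.26% of the tested members, against 5.14% and 0.815%, or 5.96% in all. In TL3D against CK2D they numbered 7 and 1, or 18.4% and 2.63% of the tested members, against 8.81% and 7.08%, or 15.9% in all. The libraries of the compared groups did not overlap for 35, 28 and 28 members in these comparisons, against 82.3%, 63.4% and 81.0% of all genes. The median log2 changes of the members were -0.03, -0.13 and 0.05 in these comparisons, beside -0.10, -0.02 and -0.04 over all genes tested. Another scaling of the libraries, by the median log ratio, moved the all-gene median of TL2D against CK2D by 0.10.

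The counts of TL2D against CK2D rested on both CK2D libraries, and those of TL3D against TL2D on both TL3D libraries. A fit without 1 library has no spread for the group left with 1, so its calls reflect the spread of the other group. Without CK2D replicate 1, 17 of the 21 calls of TL2D against CK2D were lost, at adjusted p of 0.0652 to 0.218, leaving 2 higher and 2 lower. Without CK2D replicate 2, 18 were lost, at 0.0546 to 0.303, leaving 2 higher and 1 lower. The calls kept without either were those of the catalase PCI_2755 and the superoxide dismutases PCI_2753 and PCI_1659. All 6 calls of TL3D against TL2D were lost without TL3D replicate 1, at 0.271 to 0.354, and without TL3D replicate 2, at 0.194 to 0.291. Leaving out TL2D replicate 1 or replicate 2 instead gave 10 higher and 8 lower, or 8 higher and 10 lower.

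**Figure D1:**
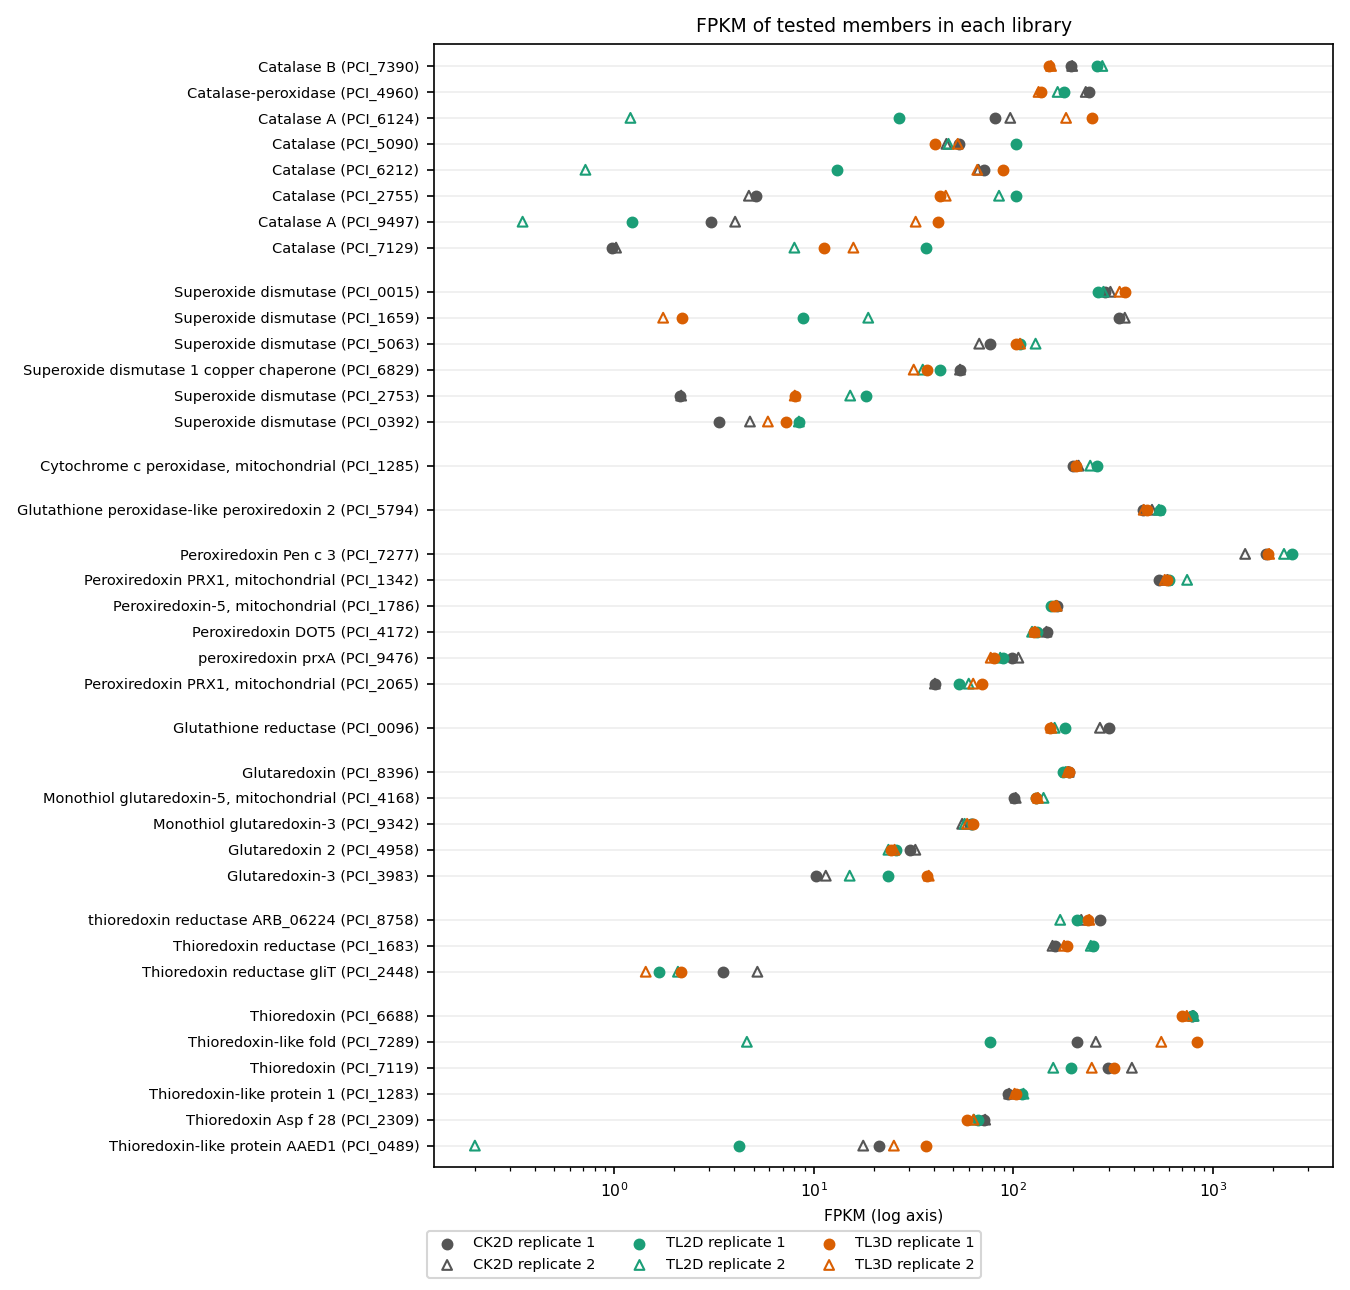
FPKM (log axis) of the tested members reported here in each of the 6 libraries, grouped by enzyme class, with filled circles for replicate 1 and open triangles for replicate 2. The peroxiredoxin PCI_7277 sat highest, between 1449 and 2495 FPKM. The widest gaps within a group were between the TL2D replicates of PCI_6124, PCI_0489, PCI_6212 and PCI_7289.

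Among the 8 tested catalases, 3 were higher and 3 lower in TL2D than in CK2D, and 4 were higher and 2 lower in TL3D than in CK2D. The catalase PCI_2755 was low on plates, at 5.14 and 4.73 FPKM in CK2D, and stood at 103 and 84.8 FPKM in TL2D and at 42.9 and 45.8 FPKM in TL3D. The 3 groups did not overlap, with TL2D highest and CK2D lowest. It was 19.0-fold higher in TL2D than in CK2D, a log2 change of 3.99 ± 0.14 (SE, adjusted p = 0.000292), and 8.99-fold higher in TL3D than in CK2D (adjusted p = 8.68e-07). Between the leaf days its level fell 2.11-fold (adjusted p = 0.0219).

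The catalase PCI_7129 lay at 0.974 and 1.02 FPKM in CK2D, at 36.7 and 8.00 FPKM in TL2D, and at 11.3 and 15.8 FPKM in TL3D. All 4 leaf libraries were above both plate libraries, and the TL3D values lay between the TL2D replicates. The gene was 22.4-fold higher in TL2D than in CK2D (log2 change 3.20 ± 0.70, adjusted p = 0.0195), or 8.01-fold without TL2D replicate 1 and 36.8-fold without replicate 2. TL3D was 13.6-fold above CK2D (adjusted p = 1.21e-05). The day 3 against day 2 change on leaves was -0.36 ± 0.69 on the log2 scale (adjusted p = 0.759). That change became 0.68 without TL2D replicate 1 and -1.39 without replicate 2.

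Catalase B (PCI_7390), named after the mycelial enzyme, was the catalase with the highest mean. Its FPKM were 194 and 197 in CK2D, 261 and 279 in TL2D, and 152 and 155 in TL3D. TL2D stood highest and TL3D lowest, with no overlap between groups. The log2 change was 0.46 ± 0.09 in TL2D against CK2D (adjusted p = 0.0135), -0.81 ± 0.09 between the leaf days (adjusted p = 0.0193) and -0.35 ± 0.08 in TL3D against CK2D (adjusted p = 0.00662).

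The catalase-peroxidase PCI_4960, an enzyme with both activities, read 239 and 230.5 FPKM in CK2D, 180.3 and 167 in TL2D, and 137 and 134 in TL3D. The groups did not overlap, with CK2D highest and TL3D lowest. It was lower in TL3D than in CK2D by a log2 change of -0.79 ± 0.08 (adjusted p = 0.000161). In TL2D against CK2D the change was -0.44 ± 0.09 (adjusted p = 0.0173), a call lost with the median log ratio scaling (adjusted p = 0.0573), and between the leaf days it was -0.36 ± 0.10 (adjusted p = 0.0848).

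The catalase PCI_5090 gave 53.2 and 46.2 FPKM in CK2D, 103 and 47.3 in TL2D, and 40.6 and 52.7 in TL3D. The groups overlapped in every comparison and none was called, the smallest adjusted p being 0.328. TL2D replicate 1 was its highest library, and without it the log2 change against CK2D went from 0.49 to -0.067. Without TL2D replicate 2 that change was 1.04.

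The other 3 tested catalases had their lowest values in TL2D, and for 1 of them, PCI_9497, both the lower level against CK2D and the rise to TL3D were called. Catalase A (PCI_9497), one of 2 tested genes named after the conidial enzyme, was at 3.06 and 4.04 FPKM in CK2D, at 1.24 and 0.348 in TL2D, and at 41.7 and 32.4 in TL3D. The groups did not overlap, with TL3D far above the others. The gene rose 46.8-fold from TL2D to TL3D, a log2 change of 4.44 ± 0.29 (adjusted p = 0.0112), or 106-fold without TL2D replicate 1 and 30.0-fold without replicate 2. TL3D was 10.4-fold above CK2D (adjusted p = 6.02e-06). TL2D was 4.48-fold below CK2D (log2 change -1.38 ± 0.30, adjusted p = 0.0197), or 10.2-fold without TL2D replicate 1 and 2.87-fold without replicate 2.

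The other gene named catalase A, PCI_6124, had 81.0 and 96.5 FPKM in CK2D, 26.7 and 1.21 in TL2D, and 247 and 184 in TL3D. TL2D was below and TL3D above CK2D in every library, but the TL2D replicates differed 22.2-fold. Only the difference of TL3D from CK2D was called, at 2.43-fold higher (log2 change 1.26 ± 0.15, adjusted p = 0.00039), and with one fit over all 6 libraries its adjusted p was 0.368. The log2 change from TL2D to TL3D was 4.77 ± 1.18 (adjusted p = 0.0706), or 6.60 without TL2D replicate 1 and 2.95 without replicate 2. Against CK2D, TL2D differed by -3.51 ± 1.22 (adjusted p = 0.0662), or by -5.34 without TL2D replicate 1 and -1.69 without replicate 2.

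The catalase PCI_6212 had 71.3 and 66.9 FPKM in CK2D, 13.0 and 0.718 in TL2D, and 88.3 and 66.0 in TL3D. TL2D was the low group, and CK2D and TL3D overlapped. It was 10.0-fold lower in TL2D than in CK2D (log2 change -3.83 ± 1.01, adjusted p = 0.0327), or 96.2-fold without TL2D replicate 1 and 5.30-fold without replicate 2. The authors' deposited FDR, their adjusted p-value, was 0.0626 for that difference. The change from TL2D to TL3D was 3.98 ± 0.99 (adjusted p = 0.0706), or 5.49 without TL2D replicate 1 and 2.46 without replicate 2. TL3D against CK2D was not called (log2 change 0.14 ± 0.14, adjusted p = 0.406), and was -0.065 without TL3D replicate 1 and 0.35 without replicate 2.

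The thioredoxin-type genes PCI_7289 and PCI_0489 also had their lowest values in TL2D, far below plates. Other members, among them thioredoxin PCI_7119, were lowest there too, but by less. The thioredoxin-like fold gene PCI_7289 read 209.5 and 259 FPKM in CK2D, 76.7 and 4.62 in TL2D, and 830.1 and 551 in TL3D. The groups did not overlap, with TL2D lowest and TL3D highest. It was 2.95-fold higher in TL3D than in CK2D (log2 change 1.53 ± 0.19, adjusted p = 0.000454, or 0.297 with one fit over all 6 libraries). The changes that involve TL2D were not called, at -3.48 ± 1.27 against CK2D (adjusted p = 0.0741) and 5.02 ± 1.23 from TL2D to TL3D (adjusted p = 0.0697). Without TL2D replicate 1 these changes were -5.38 and 6.91, and without TL2D replicate 2 they were -1.59 and 3.12. The authors' FDR was 0.162 for the change against CK2D and 0.0394 for that from TL2D to TL3D.

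The thioredoxin-like protein AAED1 (PCI_0489) stood at 21.2 and 17.7 FPKM in CK2D, 4.24 and 0.201 in TL2D, and 36.7 and 25.2 in TL3D. No groups overlapped. It was 8.75-fold lower in TL2D than in CK2D (log2 change -3.02 ± 0.72, adjusted p = 0.0249), or 96.8-fold without TL2D replicate 1 and 4.58-fold without replicate 2. From TL2D to TL3D it rose 13.9-fold (3.65 ± 0.71, adjusted p = 0.0444), or 154-fold and 7.29-fold without those replicates in turn. The authors' deposited table gave FDR values of 0.0901 and 0.0739 for these changes. Among the genes named by rule, that FDR lost 2 calls and added 2 in TL2D against CK2D. From TL2D to TL3D it lost 1 and added 5. The difference of TL3D from CK2D was 0.63 ± 0.18 (adjusted p = 0.0189), and without TL3D replicate 1 it was 0.36 and not called (adjusted p = 0.1).

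Genes listed by product name for conidia and conidiophores, which could stand among mycelium, were measured beside 5 members, PCI_9497, PCI_6124, PCI_6212, PCI_7289 and PCI_0489. The list also took hydrophobins, and PCI_0227, PCI_2115, PCI_2310, PCI_8314 and PCI_9301 are on it by that word alone. Of the 9 listed genes, all tested, 4 were lower and 2 higher in TL2D than in CK2D. From TL2D to TL3D, 4 rose and 2 fell. The shares over all genes were 29.4%, 24.8%, 6.77% and 3.30% in that order. In TL3D against CK2D, 4 were higher and 3 lower, against 28.1% and 30.2% of all genes. The 4 higher there were the hydrophobins PCI_2115, PCI_2310, PCI_8314 and PCI_9301, at log2 changes of 0.88, 1.18, 1.25 and 5.81. The 3 lower were brlA, abaA and wetA, regulators of conidiophores and conidia, at log2 changes of -0.88, -0.87 and -0.33. Of the 5 members, PCI_9497, PCI_6124, PCI_7289 and PCI_0489 were higher in that comparison, and PCI_6212 was not called. The summed level of the 9 genes was 20650 and 19395 FPKM in CK2D, 10147 and 7242 in TL2D, and 21366 and 24655 in TL3D, and none of the 9 was at 0. TL2D was the low group in this sum, and its replicate 2 the lowest library. That replicate was also lowest for the 5 members, but these were picked from the same data for their low values in TL2D. The hydrophobin PCI_0227 made up most of the sum, at 17134 and 16188 FPKM in CK2D, 6085 and 3764 in TL2D, and 15365 and 17804 in TL3D. The conidial maturation regulator wetA (PCI_1706) read 185 and 175 FPKM in CK2D, 34.4 and 18.1 in TL2D, and 131 and 155 in TL3D, and both changes were called (adjusted p = 0.00387 and 0.0222). The conidiophore regulator brlA (PCI_2178) was lower in TL2D than in CK2D (log2 change -1.38, adjusted p = 0.0102), and its change to TL3D was not called (adjusted p = 0.253). The hydrophobins PCI_9301 and PCI_2115 went the other way, PCI_9301 from 2.26 and 1.98 FPKM in CK2D to 395 and 298 in TL2D, and PCI_2115 from 404 and 314 to 1702 and 2137. The part of conidia in the levels of the 5 members was not tested, and in bulk RNA fewer cells of a kind cannot be told apart from less RNA per cell.

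**Figure D2:**
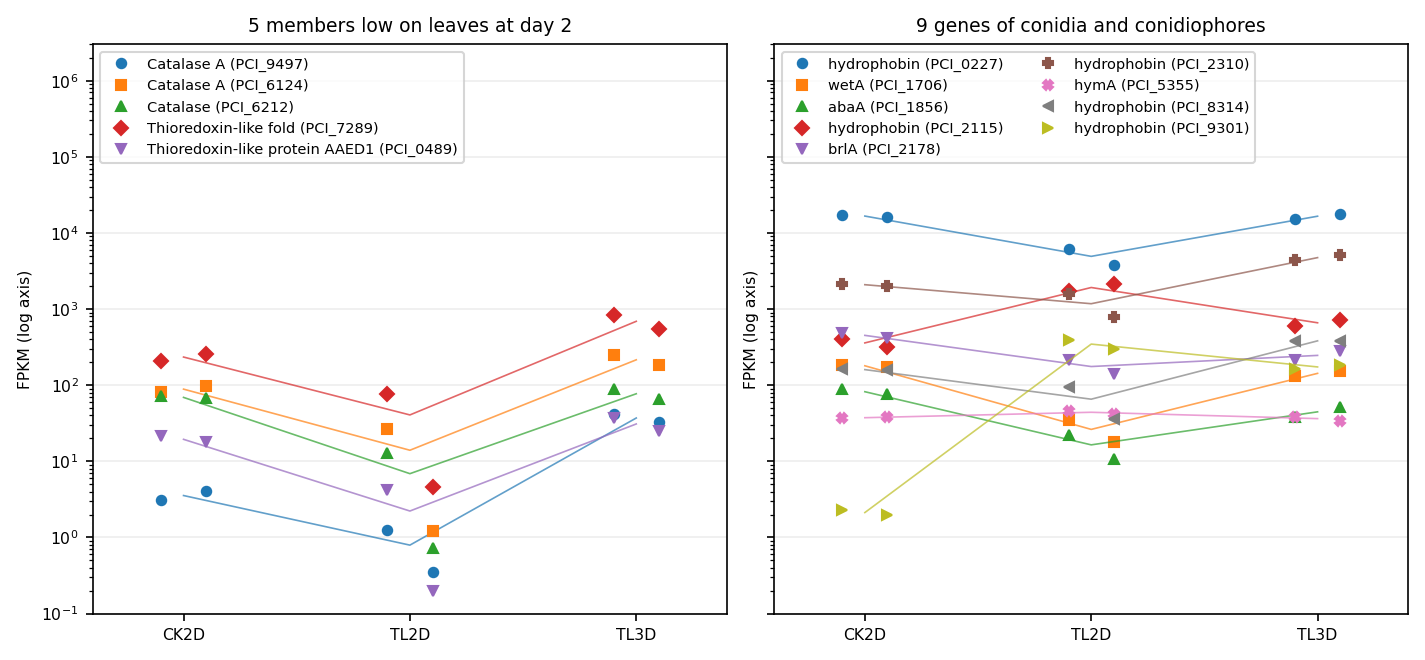
FPKM (log axis) in each group for 5 members that were low on leaves at day 2 (left) and for all 9 genes of the conidia and conidiophore list (right). Points are single libraries, replicate 1 to the left of replicate 2, and lines join group means; TL2D replicate 2 was the lowest library for all 5 members, while the hydrophobins PCI_2115 and PCI_9301 were higher in TL2D than in CK2D.

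A wide gap between the TL2D replicates was seen in other members too, and no test was made of its share. The TL2D replicates differed at least 2-fold in 8 of 38 tested members (21.1%) and in 640 of 8407 genes (7.61%). Replicate 1 was higher in 7 of the 8, all but the superoxide dismutase PCI_1659. In CK2D and TL3D no tested member differed that much between replicates, against 1.72% and 0.809% of genes.

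The catalase class kept a similar summed level while its makeup shifted. The sum over the class was 649 and 647 FPKM in CK2D, 725 and 588 in TL2D, and 761 and 685 in TL3D, so the highest library was 1.29 times the lowest. Catalase A (PCI_6124) made up 12.5% and 14.9% of that sum in CK2D, 3.69% and 0.205% in TL2D, and 32.5% and 26.8% in TL3D. PCI_2755 made up 0.792% and 0.731%, then 14.2% and 14.4%, then 5.63% and 6.69%. The share of the catalase-peroxidase PCI_4960 went from 36.9% and 35.6% in CK2D to 18.0% and 19.5% in TL3D. These shares are descriptions and were not tested.

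**Figure D3:**
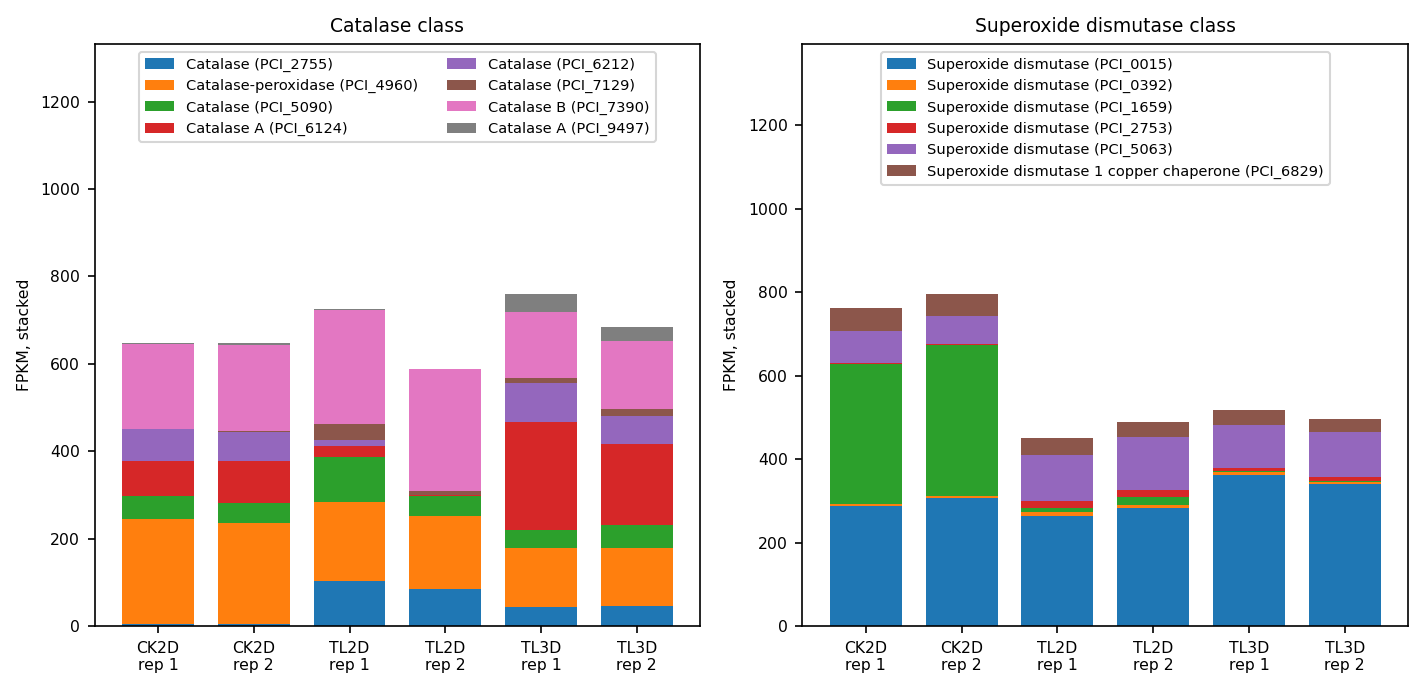
Stacked FPKM of the tested catalases (left) and of the superoxide dismutases with their copper chaperone (right) in each of the 6 libraries, 1 colour per gene. PCI_1659 held 44.3% and 45.4% of the dismutase sum in CK2D and 3.83% or less in each leaf library.

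The dismutase class holds 5 superoxide dismutases and the copper chaperone that loads copper into the copper-zinc enzyme, and 3 of the 6 were higher and 2 lower in TL2D than in CK2D. In TL3D against CK2D, 4 were higher and 2 lower. The superoxide dismutase PCI_1659 showed the largest fall among the members. It read 338 and 362 FPKM in CK2D, 8.78 and 18.7 in TL2D, and 2.18 and 1.76 in TL3D. The groups did not overlap, and every leaf library was far below both plate libraries. It was 25.4-fold lower in TL2D than in CK2D (log2 change -4.66 ± 0.35, adjusted p = 0.00163), or 18.6-fold without TL2D replicate 1 and 39.8-fold without replicate 2. It fell a further 6.99-fold from TL2D to TL3D (-2.23 ± 0.36, adjusted p = 0.0314), or 9.52-fold without TL2D replicate 1 and 4.46-fold without replicate 2. TL3D was 177-fold below CK2D (-6.89 ± 0.11, adjusted p = 1.73e-08).

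The superoxide dismutase PCI_2753 moved in the other direction. It stood at 2.15 and 2.17 FPKM in CK2D, at 18.3 and 15.2 in TL2D, and at 8.02 and 8.03 in TL3D, with no overlap. TL2D was 7.77-fold above CK2D (log2 change 2.49 ± 0.15, adjusted p = 0.00108), the level then fell by 0.97 ± 0.14 on the log2 scale (adjusted p = 0.028), and TL3D was still 3.72-fold above CK2D (adjusted p = 5.56e-05). Its order of groups, TL2D highest and CK2D lowest, was that of the catalase PCI_2755.

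PCI_0015 was the superoxide dismutase with the highest mean. Its FPKM were 288 and 306 in CK2D, 265 and 283 in TL2D, and 362 and 341 in TL3D. TL3D stood above every other library. Its log2 change of 0.24 ± 0.08 in TL3D against CK2D was called (adjusted p = 0.0407), but not without any 1 of the 4 libraries (adjusted p = 0.0563 to 0.18), and neither other comparison was. PCI_0015 made up 37.8% and 38.5% of the class sum in CK2D and 69.7% and 68.7% in TL3D. The class sum was 762 and 796 FPKM in CK2D, 452 and 489 in TL2D, and 519 and 496 in TL3D.

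PCI_5063, a further superoxide dismutase, read 76.7 and 67.4 FPKM in CK2D, 108 and 129 in TL2D, and 103 and 108 in TL3D. Both leaf groups were above plates, by log2 changes of 0.71 ± 0.13 (adjusted p = 0.0126) and 0.54 ± 0.10 (adjusted p = 0.00237). The low superoxide dismutase PCI_0392 read 3.36 and 4.79 FPKM in CK2D, 8.48 and 8.42 in TL2D, and 7.28 and 5.89 in TL3D. It was 2.07-fold higher in TL2D than in CK2D (adjusted p = 0.0158) and higher by 0.59 ± 0.17 in TL3D (adjusted p = 0.0228, but 0.0895 without CK2D replicate 1 and 0.146 without TL3D replicate 1). The copper chaperone PCI_6829 was lower on leaves, at 54.0 and 54.0 FPKM in CK2D, 43.0 and 35.2 in TL2D, and 37.1 and 31.7 in TL3D. Its log2 change was -0.46 ± 0.13 at day 2 (adjusted p = 0.0356) and -0.64 ± 0.10 at day 3 against CK2D (adjusted p = 0.00154). The change between the leaf days was called for none of these 3 genes.

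**Figure D4:**
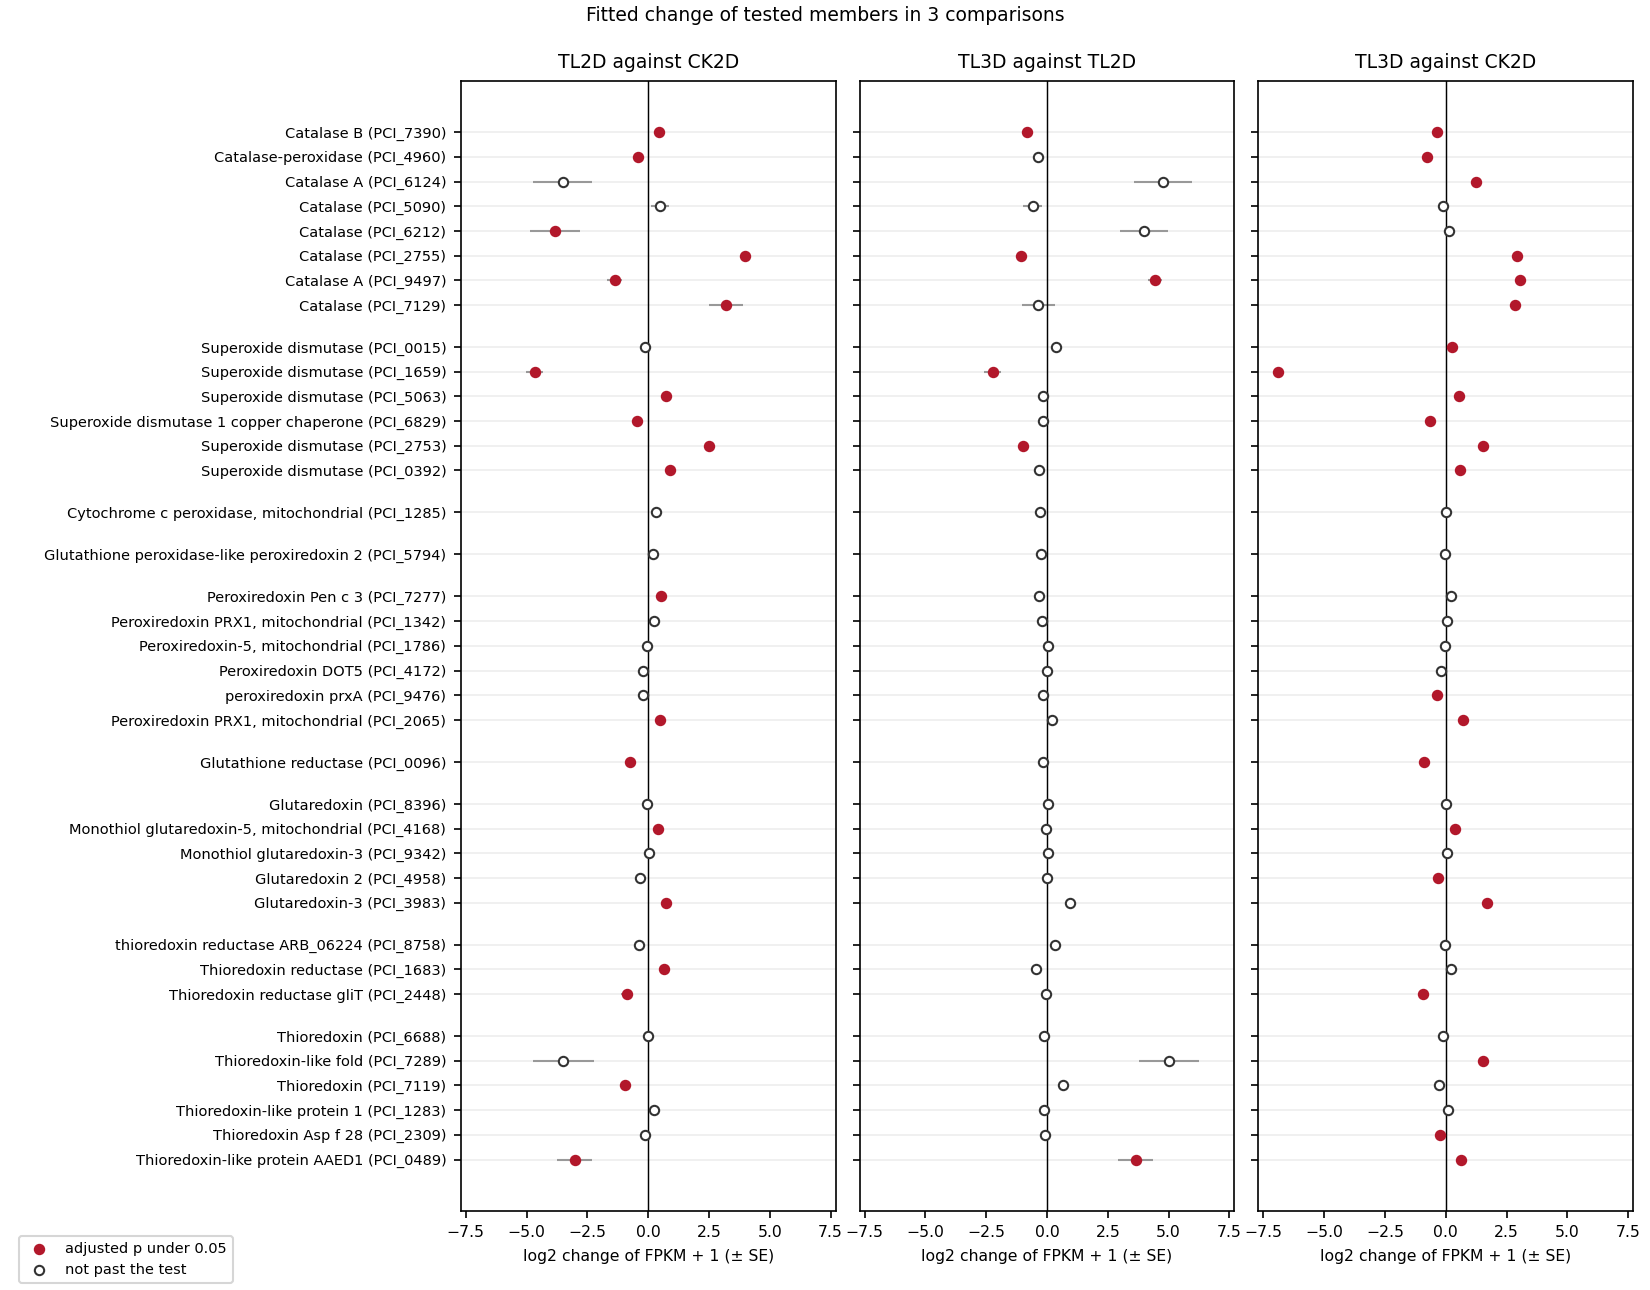
Fitted log2 change of FPKM + 1 with its standard error for the tested members reported here in each of the 3 comparisons, filled where the adjusted p was under 0.05. Filled points in the middle panel, which compares the leaf days, are few, and PCI_1659 at -6.89 in TL3D against CK2D lies farthest from 0.

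The genes of the cytochrome c peroxidase and glutathione peroxidase classes, 1 each, were called in no comparison. Cytochrome c peroxidase (PCI_1285), a mitochondrial enzyme, read 198 and 212 FPKM in CK2D, 264 and 243 in TL2D, and 207 and 208 in TL3D. TL2D was the high group, but the change from CK2D was not called (log2 change 0.30 ± 0.10, adjusted p = 0.0534). The glutathione peroxidase-like gene PCI_5794 was at 445 and 495 FPKM in CK2D, 543 and 536 in TL2D, and 465 and 450 in TL3D. Its smallest adjusted p was 0.155.

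Peroxiredoxin Pen c 3 (PCI_7277), annotated after a Penicillium allergen, was the most abundant member and ranked 22 of 9385 genes by mean FPKM. It read 1833 and 1449 FPKM in CK2D, 2495 and 2269 in TL2D, and 1881 and 1911 in TL3D. TL2D was above every other library. The log2 change in TL2D against CK2D was 0.55 ± 0.16 (adjusted p = 0.0458), a call lost without TL2D replicate 1 (0.0576) and with no filter on low values (0.0699). The mitochondrial peroxiredoxin PRX1 gene PCI_2065 read 40.4 in both CK2D libraries, 53.7 and 59.8 in TL2D, and 69.6 and 62.9 in TL3D. It was higher by 0.48 ± 0.10 in TL2D (adjusted p = 0.0167) and by 0.70 ± 0.09 in TL3D (adjusted p = 0.000591) than in CK2D. The peroxiredoxin prxA (PCI_9476) went from 98.0 and 106 FPKM in CK2D to 88.8 and 85.9 in TL2D and 80.4 and 77.0 in TL3D, and was called only in TL3D against CK2D (-0.37 ± 0.09, adjusted p = 0.00864). None of the 6 genes of the peroxiredoxin class, which leaves out PCI_5794, was called between the leaf days. PCI_1342, PCI_1786 and PCI_4172 were called in no comparison.

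Glutathione reductase (PCI_0096), which keeps glutathione reduced, was lower on leaves. It read 302 and 272 FPKM in CK2D, 181 and 161 in TL2D, and 153 and 155 in TL3D. No leaf library reached a plate library, and the leaf days did not overlap. The log2 change against CK2D was -0.75 ± 0.11 in TL2D (adjusted p = 0.00754) and -0.89 ± 0.09 in TL3D (adjusted p = 0.000139), while that between the leaf days was not called (adjusted p = 0.389).

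Of the 5 glutaredoxins, 2 were higher and none lower in TL2D than in CK2D, and 2 were higher and 1 lower in TL3D. Glutaredoxin-3 (PCI_3983) read 10.2 and 11.5 FPKM in CK2D, 23.4 and 15.1 in TL2D, and 36.7 and 37.7 in TL3D, with no overlap between groups. It was 3.43-fold higher in TL3D than in CK2D (log2 change 1.69 ± 0.10, adjusted p = 1.21e-05). Its change of 0.75 ± 0.23 in TL2D against CK2D was near the threshold (adjusted p = 0.0492, or 0.0609 with no filter), and that of 0.94 ± 0.22 between the leaf days was not called (adjusted p = 0.0622).

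The monothiol glutaredoxin-5 gene PCI_4168, whose yeast counterpart works in iron-sulfur cluster assembly in mitochondria, was singled out after its values were seen and was at 101 and 103 FPKM in CK2D, 130.0 and 142 in TL2D, and 129.5 and 133 in TL3D. Its changes against CK2D were 0.41 ± 0.09 (adjusted p = 0.0202) and 0.36 ± 0.08 (adjusted p = 0.00664). Glutaredoxin 2 (PCI_4958) was lower in TL3D than in CK2D by 0.32 on the log2 scale (adjusted p = 0.0215), a call lost without CK2D replicate 2 (0.111), TL3D replicate 1 (0.0919) or TL3D replicate 2 (0.054). The glutaredoxin with the highest mean, PCI_8396, read 190.1 and 189 FPKM in CK2D, 178 and 183 in TL2D, and 189 and 187 in TL3D, and was not called.

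The 3 tested thioredoxin reductases differed in level and direction. PCI_1683 read 161.5 and 157 FPKM in CK2D, 252 and 244 in TL2D, and 186 and 179.5 in TL3D, with TL2D the high group and no overlap. It was higher in TL2D than in CK2D by 0.63 ± 0.08 on the log2 scale (adjusted p = 0.00561), and its change to TL3D was -0.44 ± 0.09 (adjusted p = 0.0501). The gene annotated gliT (PCI_2448), after an enzyme of the gliotoxin cluster in Aspergillus fumigatus, was low throughout, at 3.52 and 5.22 FPKM in CK2D, 1.67 and 2.09 in TL2D, and 2.16 and 1.44 in TL3D. Both leaf groups were lower than CK2D, with log2 changes of -0.88 ± 0.22 in TL2D (adjusted p = 0.027) and -0.93 ± 0.21 in TL3D (adjusted p = 0.00655, but 0.0523 without TL3D replicate 2). PCI_8758 read 273 and 219 FPKM in CK2D, 208 and 172 in TL2D, and 235.5 and 240.0 in TL3D, and was not called.

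Among the 7 thioredoxins and thioredoxin-like genes, 1 was higher and 2 lower in TL2D than in CK2D, and 3 were higher and 1 lower in TL3D. Thioredoxin PCI_6688 had the highest mean of the class and read 785 and 793 FPKM in CK2D, 781 and 801 in TL2D, and 699.7 and 739 in TL3D, with no change called.

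Thioredoxin PCI_7119, singled out after its values were seen, had 299 and 392 FPKM in CK2D, 194 and 158 in TL2D, and 318.5 and 247 in TL3D. It was lower in TL2D than in CK2D by a log2 change of -0.96 ± 0.18 (adjusted p = 0.0133, but 0.0811 without CK2D replicate 2). The change of 0.68 ± 0.17 to TL3D was not called (adjusted p = 0.0755), and was 0.82 without TL2D replicate 1 and 0.53 without replicate 2. Thioredoxin Asp f 28 (PCI_2309), annotated after an Aspergillus fumigatus allergen, read 71.4 and 72.2 FPKM in CK2D, 66.5 and 63.5 in TL2D, and 58.8 and 63.1 in TL3D. Its call in TL3D against CK2D (-0.23 ± 0.09, adjusted p = 0.05, just under the threshold) was lost without each library in turn (0.0676 to 0.186).

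The summed level of all members moved little, from 7335 FPKM in CK2D replicate 2 to 7948 FPKM in TL3D replicate 1. Peroxiredoxins were the largest part of it. They summed to 2821 and 2498 FPKM in CK2D, 3528 and 3443 in TL2D, and 2905 and 2917 in TL3D, which made TL2D the high group. A single gene, PCI_7277, held between 58.0% and 70.7% of that sum in each library. Thioredoxins and thioredoxin-like genes summed to 1491 and 1643 FPKM in CK2D, 1258 and 1172 in TL2D, and 2073 and 1746 in TL3D, with TL2D the low group. The share of PCI_7289 in that sum was 14.0% and 15.8% in CK2D, 6.10% and 0.394% in TL2D, and 40.1% and 31.5% in TL3D.

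The remaining 3 members were too low to test. The peroxisomal catalase PCI_2192 read 0.113 and 0.0286 FPKM in CK2D, 0.171 and 0.0495 in TL2D, and 0.284 and 0.692 in TL3D. The catalase domain protein PCI_3489 and the thioredoxin reductase PCI_4518, annotated aclD after the aspirochlorine cluster of Aspergillus oryzae, lay between 0 and 0.186 FPKM. In the authors' deposited table, whose mark needs at least a 2-fold change, 5 members were marked higher and 3 lower in TL2D than in CK2D, and 2 higher and 3 lower in TL3D than in TL2D.

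Genes that supply glutathione and NADPH, that make hydrogen peroxide or that regulate the defence were read from lists of product names. Over all genes tested, 24.8% were higher and 29.4% lower in TL2D than in CK2D, and 28.1% higher and 30.2% lower in TL3D than in CK2D. From TL2D to TL3D, 6.77% of all genes tested rose and 3.30% fell. In the glutathione synthesis and use list, 1 of 19 tested genes was higher and 11 lower in TL2D than in CK2D, with a median log2 change of -0.61 against -0.10 over all genes. In TL3D against CK2D, 3 were higher and 11 lower. The glutathione S-transferase-like gene FUS3 (PCI_2118) had the largest fall at day 2, from 1482 and 1376 FPKM in CK2D to 405 and 328 in TL2D (log2 change -1.97, adjusted p = 0.00147), and read 245 and 267 in TL3D. The glutathione S-transferase PCI_6913 was the gene higher in TL2D, at 24.0 and 21.4 FPKM in CK2D, 46.5 and 70.2 in TL2D, and 81.0 and 102 in TL3D (adjusted p = 0.0103 for TL2D). Between the leaf days 1 gene of this list rose, OpS6 (PCI_6542), from 15.3 and 7.68 FPKM to 96.2 and 63.0 (adjusted p = 0.0243), and 1 fell, glutamate-cysteine ligase (PCI_0708), which makes the first bond of glutathione, from 86.6 and 76.9 to 55.2 and 48.3 (adjusted p = 0.0421).

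Of 5 genes of NADPH supply, 1 was higher and 1 lower of the 4 tested in TL2D against CK2D, 2 rose from TL2D to TL3D, and 3 were higher in TL3D than in CK2D. NADP-dependent malic enzyme (PCI_2662) read 57.8 and 59.2 FPKM in CK2D, 159.8 and 143 in TL2D, and 111 and 123 in TL3D, and was higher in TL2D by 1.35 on the log2 scale (adjusted p = 0.00148). A 6-phosphogluconate dehydrogenase gene (PCI_8990), an enzyme of the pentose phosphate pathway, rose from 1.38 and 0.346 FPKM in TL2D to 27.5 and 19.9 in TL3D (adjusted p = 0.0148). The abundant gene for that enzyme, PCI_9074, lay between 717 and 848 FPKM in all libraries and was not called.

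Of the oxidases that form hydrogen peroxide, 29 were tested in TL2D against CK2D, and 10 were higher and 4 lower, and of 30 tested in TL3D against CK2D, 12 were higher and 6 lower. The L-amino-acid oxidase PCI_8349 read 3.37 and 7.16 FPKM in CK2D, 651 and 444 in TL2D, and 352.5 and 417 in TL3D (log2 change 6.50 in TL2D, adjusted p = 0.001). The galactose oxidase PCI_6351 read 0.254 and 0.251 FPKM in CK2D, 67.8 and 74.3 in TL2D, and 25.4 and 25.2 in TL3D. It was the 1 oxidase called between the leaf days (log2 change -1.45, adjusted p = 0.0112). The monoamine oxidase PCI_3361 was lower in TL2D than in CK2D by a log2 change of -1.34 (adjusted p = 0.00911).

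In the repair and regulation list of 12 genes, 1 was higher and 3 lower in TL2D than in CK2D, and 5 of the 12 are subunits of the clathrin adaptor AP-1, matched by name. Yap1 (PCI_1176), a transcription factor that turns on defence genes under oxidative stress in yeasts, read 84.6 and 82.4 FPKM in CK2D, 47.8 and 41.8 in TL2D, and 50.4 and 47.1 in TL3D. It was lower by a log2 change of -0.89 in TL2D (adjusted p = 0.00442) and -0.77 in TL3D (adjusted p = 0.000289). The 2 flavohemoproteins, enzymes that detoxify nitric oxide, differed in direction in TL2D. PCI_7481 went from 45.7 and 47.0 FPKM in CK2D to 281 and 372 in TL2D (adjusted p = 0.00101), and PCI_5153 from 40.0 and 37.1 to 14.1 and 8.62 (adjusted p = 0.00649), before it rose to 58.1 and 46.3 in TL3D (adjusted p = 0.0206).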

How the data were processed

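RNA sequencing of 6 libraries was analysed from tables of 9385 genes. Per the file headers, the deposited values are FPKM per replicate, a fold column that is a ratio of group means, its log2, and an FDR, a p-value adjusted for multiple tests by the authors. The submitters' processing notes name Cufflinks, without a version. The sources used here give no aligner, genome build, annotation, strand setting or test behind the FDR. The authors' deposited log2 column was checked against recomputed values, and the TL2D columns were identical in both tables, so TL3D was also compared with CK2D. Low FPKM values did not fall on whole-read steps, so depth is unknown and no count test was run. How reads from near-identical gene copies were split could not be checked. None of the gene IDs matched the RefSeq table, so no positions are given.

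A gene was tested in a comparison if 2 or more of its 4 libraries reached 1 FPKM. limma 3.58.1 (R 4.3.3) was run on log2(FPKM + 1), using eBayes with a trend and Benjamini-Hochberg adjustment over 8286, 8222 and 8356 genes for TL2D against CK2D, TL3D against TL2D and TL3D against CK2D. The script was tested on simulated data. Replicate numbers were not taken as pairing the samples. Alternatives were leaving out each library, no filter on low values, a pseudocount of 0.1, a replicate block, 2 other scalings, one fit over 6 libraries, the authors' FDR, an adjusted p under 0.01 and a 2-fold limit.

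Members and lists were chosen with earlier results of these data known. Named with values were all tested catalases, dismutases, cytochrome c and glutathione peroxidases, glutathione and thioredoxin reductases, and in other classes the highest member and the called members with the largest rise and fall, except for 1 called thioredoxin-class member that is not reported here. In the other lists genes of the same 3 kinds were named, but not all such genes, and not all with every value.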

Additional observations from a re-analysis of the deposited data

How the results depend on the processing

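The median log2 change of the members in TL2D against CK2D became 0.080 with median log ratio scaling, and that in TL3D against CK2D 0.081 with that scaling and 0.11 with no filter. Leaving out 1 library gave medians of -0.052 to -0.028 in TL2D against CK2D, -0.13 to -0.062 in TL3D against TL2D and 0.023 to 0.11 in TL3D against CK2D. It gave 2 to 14 higher and 1 to 13 lower, 0 to 10 higher and 0 to 10 lower, and 11 to 14 higher and 6 to 9 lower in the same order. At a 2-fold limit on the log2(FPKM + 1) scale, 4 members were higher and 4 lower in TL2D against CK2D. With that limit 2 were lower in TL3D against TL2D, and 7 were higher and 1 lower in TL3D against CK2D. At an adjusted p under 0.01, limma called 4 higher and 2 lower in TL2D against CK2D, and 0 in either direction between the leaf days, where 18 members had an unadjusted p under 0.05 and the authors' FDR passed 4 higher and 7 lower. Members higher in TL3D than in TL2D numbered 1 with no filter, 1 with a pseudocount of 0.1, 7 with one fit over 6 libraries and 6 with the replicate block.

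Replicate deviations from the group means correlated at -0.08, 0.17 and -0.25 over 8407 genes in the 3 comparisons. With so few replicates these values cannot show whether the replicate numbers pair libraries, and the main fits took them as unpaired. With the replicate block 10 members were higher and 8 lower, 6 and 4, and 13 and 8 in the same order. Crossed numbers, tried after seeing the data for TL3D against CK2D, gave 15 higher and 11 lower.

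Log2 changes of genes under the naming rule that changed sign under an alternative were uncalled as reported. With median log ratio scaling, PCI_8396 went to 0.036 in TL2D against CK2D and to 0.019 in TL3D against CK2D, where upper-quartile scaling gave 0.0085. The others reversed when 1 library was left out, and their ranges over the libraries left out follow. In TL2D against CK2D these were -0.067 to 1.04 for PCI_5090 and -0.015 to 0.021 for PCI_6688, which was at -0.0041 without CK2D replicate 1. Between the leaf days they were -1.39 to 0.68 for PCI_7129, -0.24 to 0.14 for PCI_2448 and -0.047 to 0.066 for PCI_4958. In TL3D against CK2D they were -0.034 to 0.066 for PCI_1285, -0.28 to 0.085 for PCI_5090, -0.11 to 0.041 for PCI_5794, -0.065 to 0.35 for PCI_6212 and -0.20 to 0.12 for PCI_8758. Without 1 library, uncalled changes of PCI_1342, PCI_1786, PCI_4168, PCI_4172 and PCI_9342, outside that rule, also changed sign. Alternatives were run for the members and not for the other lists. The cause was not tested, and depth is unknown.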
